A study of Mus musculus with 2 samples.

Results

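The fetal liver genes are 10 genes that mark the hepatoblast, the bipotent precursor of hepatocytes and cholangiocytes, or that control such genes. They were taken by symbol from the 43280 symbols counted in each library, and all 10 were found. They are Afp, Alb, Gpc3, Dlk1, Igf2, H19, Igf2bp3, Lin28b, Zhx2 and Zfhx3. Poly(A) RNA was sequenced on an Ion Proton system from 1 library of mature hepatocytes (MHs) and 1 library of small hepatocytes (SHs), which are described as progenitors among hepatocytes. Both came from collagenase-perfused livers of untreated C57BL6 mice, labelled as 20 weeks old, whereas the methods of the study give a younger age. MHs and SHs were separated by centrifugation, and Percoll was used to remove dead cells from both. The MHs went through no sort. SHs were isolated from the same mice and sorted as CD31-, CD45-, EpCAM- and ICAM-1+ cells.

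Counted reads numbered 16979136 in MHs and 42356444 in SHs. A gene with 3 or fewer reads in both libraries was treated as too low for a fold. This level of 3 reads stood for 0.177 reads per 1000000 counted reads (RPM) in MHs and 0.0708 RPM in SHs. With 1 library per condition there was no replicate and no test between conditions. Each interval below is an exact 95% interval that reflects counting error alone, and no molecular identifiers are described for the reads. In RNA of whole preparations, fewer cells of a type and less RNA per cell cannot be told apart.

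In the fetal liver, hepatoblasts secrete alpha-fetoprotein (Afp), a relative of albumin (Alb), and display the surface proteins Dlk1 and glypican-3 (Gpc3). The fetal growth factor Igf2 and the noncoding RNA H19 lie side by side and are imprinted, and the RNA-binding proteins Lin28b and Igf2bp3 act after transcription, Lin28b by blocking maturation of let-7 microRNAs. Around birth most of these genes are shut off while Alb stays on. Zhx2 and Zfhx3 are zinc-finger and homeodomain proteins known to hold Afp down, and the mouse strain that lacks normal Zhx2 keeps Afp in the adult liver.

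Afp and Alb are neighbours, and their promoters are shown because Alb had the most reads of all genes while Afp had few. The RefSeq promoters (GRCm38.p6, which has the coordinates of mm10) run from 250 bases before to 50 bases after the start. In the first pair, capitals mark the TATA box TATAAA and the CCAAT box, each searched on both strands. The promoter of Gpc3, a marker near 0 reads, is shown beside them for its different base composition, and its capitals mark CG pairs.
Alb, plus strand, chr5:90460620-90460919: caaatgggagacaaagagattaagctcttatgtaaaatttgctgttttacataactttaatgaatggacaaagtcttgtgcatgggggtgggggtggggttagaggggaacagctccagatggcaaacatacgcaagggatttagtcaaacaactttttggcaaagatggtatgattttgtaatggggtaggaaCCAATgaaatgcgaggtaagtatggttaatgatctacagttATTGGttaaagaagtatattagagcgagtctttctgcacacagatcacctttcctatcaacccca
Afp, plus strand, chr5:90490464-90490763: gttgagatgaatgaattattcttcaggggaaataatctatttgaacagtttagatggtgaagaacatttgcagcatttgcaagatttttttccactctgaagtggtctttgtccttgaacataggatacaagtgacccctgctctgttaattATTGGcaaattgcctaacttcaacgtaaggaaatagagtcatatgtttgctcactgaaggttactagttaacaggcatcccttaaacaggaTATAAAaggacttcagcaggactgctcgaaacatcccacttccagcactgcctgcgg
Gpc3, minus strand, chrX:52613925-52614224: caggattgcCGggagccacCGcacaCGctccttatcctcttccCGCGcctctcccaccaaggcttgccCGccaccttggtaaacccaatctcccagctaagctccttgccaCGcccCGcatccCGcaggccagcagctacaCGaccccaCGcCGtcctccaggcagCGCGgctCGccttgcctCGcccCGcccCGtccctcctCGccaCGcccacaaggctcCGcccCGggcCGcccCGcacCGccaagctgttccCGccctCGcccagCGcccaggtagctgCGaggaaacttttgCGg
The Alb and Afp promoters were alike in base composition, with a GC content of 40.0% and 3 CG pairs each, against medians of 52.7% and 7 pairs over 32851 promoters of this length. TATAAA, found in 13.6% of these promoters, began at position -7 in Afp and was not in Alb, counted from the RefSeq start, which lies somewhat upstream of the GENCODE start in both genes. CCAAT, found in 37.4% of promoters, began at -56 on the plus strand of Alb and at -15 on its minus strand, and in Afp at -98 on the minus strand. The Gpc3 promoter had a GC content of 70.7% and 30 CG pairs. Among the other members with a listed promoter, Igf2bp3 had 25 CG pairs, Zfhx3 21, Dlk1 9 and Lin28b 8, and the 4 promoters of Igf2 had between 2 and 24. TATAAA was in none of these and not in Gpc3.

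Albumin, the main protein of adult plasma, was the gene with the most reads in both libraries. Alb (ENSMUSG00000029368.10, chromosome 5, 90460897 to 90476602 of mm10, plus strand) had 945837 reads in MHs, or 5.57% of the library, and 2577617 in SHs, or 6.09%. These were 55706 and 60855 RPM, a ratio of 1.09. The log2 ratio of SHs over MHs, here and below with 0.5 reads added to each count, was 0.13 (0.12 to 0.13). Counting error is negligible at this depth, and 45.7% of the 81 genes with at least 100000 reads had an interval above 0, while 48.1% had one below 0, so that nearly all genes of this depth had an interval without 0.

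Alpha-fetoprotein was barely detected in either library and had a higher RPM in SHs. Afp (ENSMUSG00000054932.6, chromosome 5, 90490737 to 90508907, plus strand) starts 14134 bases beyond the end of Alb. It had 4 reads in MHs, or 0.236 RPM (0.0642 to 0.603), and 29 in SHs, or 0.685 RPM (0.459 to 0.983). At the depth of MHs, the reads in SHs would have been 11.6. The ratio of the RPM values was 2.91 (1.02 to 11.4), and the log2 ratio was 1.39 (0.03 to 3.51). The interval thus began close to equal levels, and the intervals of the levels overlapped. It reached 0, and the call was lost, when the libraries were scaled by the reads on adult hepatocyte genes (0.00 to 3.48). Afp made up 4.23 reads per 1000000 Alb reads in MHs (1.15 to 10.8) and 11.3 in SHs (7.53 to 16.2), for a log2 ratio of 1.27 (-0.10 to 3.38) whose interval included 0.

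Of the 1811 genes with 20 to 50 reads over both libraries, the range that holds Afp, 6.68% had an interval above 0, all of them at least 2-fold higher in SHs, while 13.3% had an interval below 0. Among the 15521 genes with at least 10 reads, 16.8% had an interval above 0 and 15.5% below 0, and the shares at least 2-fold apart with an interval on that side were 2.00% higher and 4.46% lower. Of the members, 4 had at least 10 reads, namely Alb, Zhx2, Zfhx3 and Afp. An interval above 0 was found for 2 of them, Alb and Afp, and below 0 for 0, and Afp was the 1 member at least 2-fold higher. Their median log2 ratio was 0.16, against 0.02 over all 15521 genes.

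**Figure D1:**
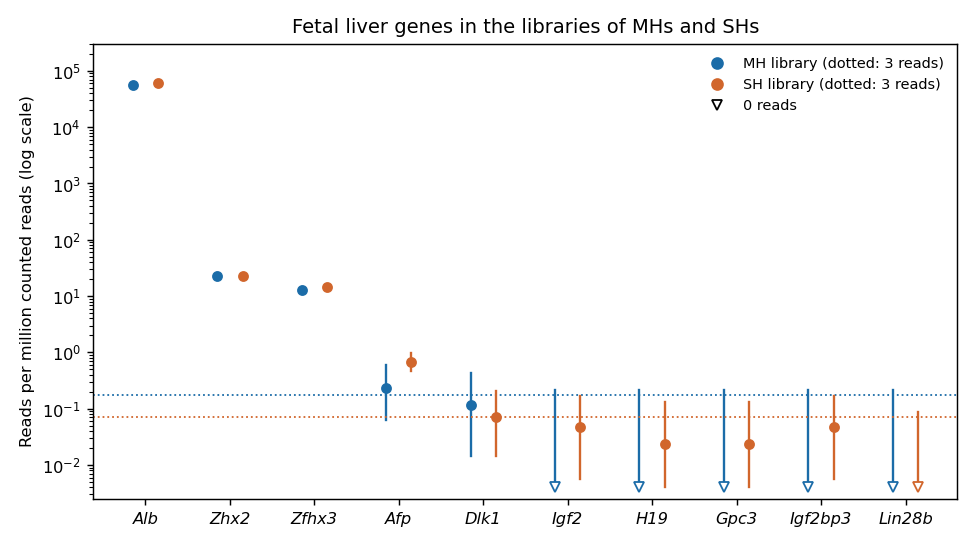
RPM of each fetal liver gene (log axis) in the MH library (blue) and the SH library (orange), with bars for exact 95% Poisson intervals, cut off at the lower edge, dotted lines at the level of 3 reads and open triangles for 0 reads. Alb stands near 55706 and 60855, and Zhx2 and Zfhx3 lie between 12.8 and 23.0. Afp is just above the dotted line at 0.236 in MHs and well above it at 0.685 in SHs. The other 6 genes lie at or under the line of their library.

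The remaining fetal markers had 3 or fewer reads in each library, and no fold is given for them. Igf2 (chromosome 7, 142650766 to 142666816, minus strand), the growth factor of the fetus, had 0 reads in MHs and 2 in SHs. Its exons overlap those of Igf2os on the other strand, which had 1 and 4 reads. H19 (chromosome 7, 142575529 to 142578143, minus strand), a long noncoding RNA 72622 bases away from Igf2, had 0 and 1. Dlk1 (chromosome 12, 109452823 to 109463336, plus strand), a transmembrane relative of the Notch ligands, had 2 reads in MHs and 3 in SHs. It was the only gene of the 6 with any read in MHs.

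Gpc3 (chromosome X, 52272426 to 52613950, minus strand), a heparan sulfate proteoglycan of the cell surface, had 0 reads in MHs and 1 in SHs. Igf2bp3 (chromosome 6, 49085223 to 49214957, minus strand), which binds Igf2 and other mRNAs, had 0 and 2. Its exons overlap those of Malsu1 on the other strand, which had 217 and 494 reads, and whether the counting used the strand is not given in the sources used here. Lin28b (chromosome 10, 45376620 to 45486395, minus strand) had 0 reads in both libraries, the only member without a read in SHs. Taken as 3 reads, the limit that a count of 0 allows was 0.177 RPM in MHs and 0.0708 RPM in SHs, while the exact intervals of a count of 0 ended at 0.217 and 0.0871 RPM.

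Such low counts were common. Of all 43280 symbols, 59.6% had 3 or fewer reads in each library, as did 40.7% of the 20701 protein-coding symbols found in the GENCODE M21 annotation. Together Afp, Gpc3, Dlk1, Igf2, H19, Igf2bp3 and Lin28b had 6 reads in MHs and 38 in SHs, of which Afp gave 66.7% and 76.3%. The sum was 0.353 RPM in MHs (0.130 to 0.769) and 0.897 in SHs (0.635 to 1.23), for a log2 ratio of 1.25 (0.09 to 2.88). Without Afp, the sum was 2 and 9 reads, and the log2 ratio of 0.61 had an interval from -1.42 to 4.10. For the 6 genes without Afp, a difference was thus not detectable at this depth.

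Zhx2 and Zfhx3 were both expressed in MHs and in SHs, at levels that counting error could not tell apart. Zhx2 (ENSMUSG00000071757.10, chromosome 15, 57694665 to 57839832, plus strand) had 391 reads in MHs and 944 in SHs. These were 23.0 RPM (20.8 to 25.4) and 22.3 RPM (20.9 to 23.8), for a log2 ratio of -0.05 (-0.22 to 0.13). The interval of the ratio of the RPM values ran from 0.859 to 1.09.

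Zfhx3 (ENSMUSG00000038872.10, chromosome 8, 107942644 to 108961630, plus strand), also called ATBF1, had 217 reads in MHs and 616 in SHs. These were 12.8 RPM (11.1 to 14.6) and 14.5 RPM (13.4 to 15.7), for a log2 ratio of 0.18 (-0.04 to 0.42). Among the 4293 genes with 500 to 2000 reads, where Zhx2 and Zfhx3 lie, 19.3% had an interval above 0 and 13.6% below 0.

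**Figure D2:**
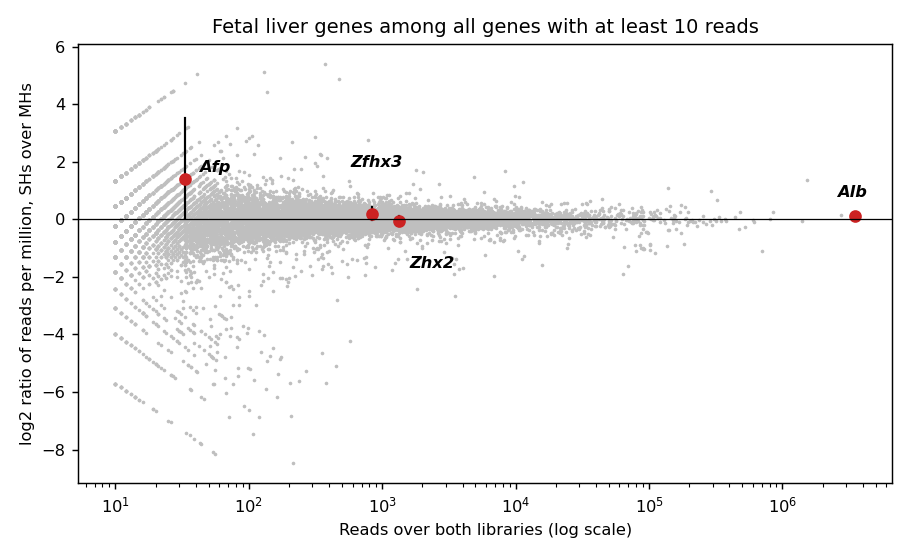
Log2 ratio of RPM in SHs over MHs against the reads over both libraries (log axis) for all 15521 genes with at least 10 reads (grey), with the 4 fetal liver genes among them in red and their exact 95% intervals as bars. Alb (0.13), Zhx2 (-0.05) and Zfhx3 (0.18) lie close to 0, and Afp (1.39) lies among the genes with few reads, where the ratios spread most.

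Levels of different genes were compared as RPM per kilobase of annotated exons (RPKM). Within the albumin family, Alb had 23786 RPKM in MHs and 25984 in SHs. Gc, the vitamin D-binding protein, had 1908 and 1836, and Afm (afamin), which carries vitamin E and lies 10024 bases beyond Afp, had 56.7 and 55.8. Afp had 0.0699 and 0.203 RPKM. The order Alb, Gc, Afm and Afp was the same in both libraries. For each read per kilobase on Afp there were 340049 on Alb in MHs and 127822 in SHs, and 811 and 274 on Afm. Gc had a log2 ratio of -0.06 (-0.07 to -0.04) and Afm one of -0.02 (-0.09 to 0.04), so that Alb and Afm, on either side of Afp, had ratios close to 1.

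The relatives of Zhx2 and Zfhx3, named after their values were seen, were compared with them per length. Zhx2 had 5.19 RPKM in MHs and 5.03 in SHs, Zhx1 4.70 and 5.03, and the level of Zhx2 was 0.854 of that of Zhx3 in MHs and 0.837 in SHs. Zfhx4 had 0.996 and 1.07 RPKM, Zfhx3 0.609 and 0.693, and Zfhx2 0.386 and 0.416. All 6 genes had an interval of the log2 ratio that included 0, with values between -0.05 and 0.18. Zhx2 was 8.52 times as high as Zfhx3 per kilobase in MHs and 7.25 times in SHs.

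A list of 16 genes held regulators of Afp together with the relatives of Zhx2 and Zfhx3 given above. Of the 16, 15 had at least 10 reads, with 5 intervals above 0, 2 below 0 and 8 that included 0. The shares over all genes with at least 10 reads were 16.8% above 0 and 15.5% below 0. Their median log2 ratio was 0.10, against 0.02 over all genes, and 0 of them differed by 2-fold. Hnf4a, a main regulator of hepatocyte genes, had the most reads, with 633 RPM in MHs and 649 in SHs. Cebpa, a factor of hepatocyte maturation, had 507 and 585 RPM, for a log2 ratio of 0.21 (0.17 to 0.24). Zbtb20 had the lowest log2 ratio of the 15, with 219 RPM in MHs and 168 in SHs and a value of -0.38 (-0.44 to -0.32). Nr5a2, a nuclear receptor, chosen after its values were seen, had 46.9 and 58.6 RPM, for a log2 ratio of 0.32 (0.20 to 0.44). Nr2f2 at 0.22 (0.04 to 0.41) and Trp53 at 0.24 (0.02 to 0.48) also had intervals above 0. Foxa3 at -0.14 (-0.26 to -0.02) had the other interval below 0. These genes were likewise named after their values were seen, and the part of any regulator in the level of Afp was not tested.

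**Figure D3:**
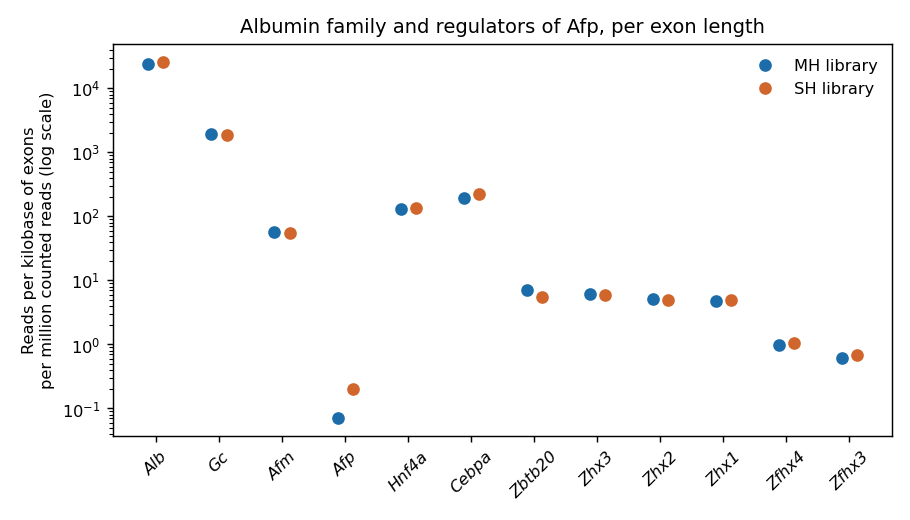
RPM per kilobase of exons (RPKM, log axis) in the MH library (blue) and the SH library (orange). The genes are the albumin family and 8 of the list of regulators of Afp and relatives of Zhx2 and Zfhx3. Of the genes plotted, Alb is highest at 23786 and 25984 and Afp lowest at 0.0699 and 0.203, while Zhx1, Zhx2 and Zhx3 lie between 4.70 and 6.08.

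Genes known to respond to Zhx2 had ratios in both directions. This list held Afp, H19, Gpc3, Lpl and Elovl3, and 3 of the 5 had at least 10 reads. Lpl, lipoprotein lipase, had 61 reads in MHs and 23 in SHs, or 3.59 and 0.543 RPM, for a log2 ratio of -2.71 (-3.49 to -2.01). Elovl3, an elongase of fatty acids, had 422 RPM in MHs and 291 in SHs, for a log2 ratio of -0.54 (-0.58 to -0.50). Both were lower in SHs, while Afp had a higher RPM there. The part of Zhx2 in these values was not tested. The unsorted MHs also held more reads of other cell types. All 10 endothelial markers were lower in SHs (summed RPM 93.9 in MHs and 4.75 in SHs, with Lyve1 at 0 reads in SHs), as were 8 of 9 macrophage and immune markers (summed RPM over the 9 of 21.7 and 0.755) and 9 of 10 stellate and fibroblast markers (over the 10, 26.9 and 2.69). The other macrophage marker, Marco, had 3 and 0 reads, and Col1a1 had 1 and 6. Pecam1 and Ptprc, counted among the markers lower in SHs, encode proteins that SHs were sorted to lack. Of 6 mesothelial markers, 5 had 0 reads in both libraries and Msln had 1 read in SHs. The part of these cells in the difference of Lpl was not tested.

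Of 18 imprinted growth genes, which are coexpressed in fetal tissues, 7 had 3 or fewer reads in each library, Igf2, H19 and Dlk1 among them. So did 59.6% of all symbols and 40.7% of protein-coding symbols. Another 9 of the 18 had at least 10 reads, with 3 intervals above 0, 3 below 0 and 3 including 0. Their median log2 ratio was -0.10. The shares over all genes with at least 10 reads were 16.8% above 0 and 15.5% below 0. Peg10, a gene of retrotransposon origin, had 20 reads in MHs and 130 in SHs, or 1.18 and 3.07 RPM, for a log2 ratio of 1.35 (0.70 to 2.14). Nnat (neuronatin, a small membrane protein), chosen after its values were seen, had 2 reads in the MH library against 35 in that of SHs, a ratio of 7.02 and a log2 ratio of 2.51 (0.85 to 5.91). Meg3, a noncoding RNA beside Dlk1 and likewise chosen after its values were seen, had 10 and 5 reads, for a log2 ratio of -2.25 (-4.22 to -0.64). Mest, chosen in the same way, had 6 reads in MHs and no read in SHs. Set against the level of 3 reads in SHs, its RPM was at least 4.99-fold lower there, a bound that leaves out the counting error of the 6 reads, and the exact interval of its log2 ratio ended at -1.55. Slc38a4, an amino acid transporter, had the most reads of the list, with 1110 RPM in MHs and 1014 in SHs. Gnas, which encodes a G protein subunit, had 205 and 236 RPM.

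Partners of Igf2, which itself had no more than 2 reads, differed widely in level. Igf2r, the receptor that clears Igf2, had 60.3 RPM in MHs and 61.3 in SHs, for a log2 ratio of 0.02 (-0.08 to 0.13). Igf1r, the receptor through which Igf2 signals, named after its values were seen, had 5 and 18 reads, or 0.294 and 0.425 RPM, and the interval of its log2 ratio of 0.43 ran from -0.95 to 2.31. Igf1, the growth factor that takes the place of Igf2 in the adult, had 470 and 488 RPM, for a log2 ratio of 0.05 (0.01 to 0.09). Among 16 genes of the IGF system, 11 had at least 10 reads, with a median of 0.05, 4 intervals above 0 and 3 below 0. The shares over all genes with at least 10 reads were 16.8% above 0 and 15.5% below 0. The binding protein Igfbp4 had 949 and 1080 RPM, for a log2 ratio of 0.19 (0.16 to 0.21), and Igfbp2, which is abundant in the fetus, had 236 and 204, for a log2 ratio of -0.21 (-0.27 to -0.16). Igfbp7 was lower in SHs, with 156 reads in MHs and 9 in SHs and a log2 ratio of -5.36 (-6.59 to -4.47). Igfbp3, chosen after its values were seen, had 19 reads and 1 read, for a log2 ratio of -5.02 (-10.94 to -2.91). Igfbp6 had 0 reads in both libraries. Igfbp7 and Igfbp3 are made by nonparenchymal liver cells, whose markers were lower in SHs as given above, and their part was not tested.

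**Figure D4:**
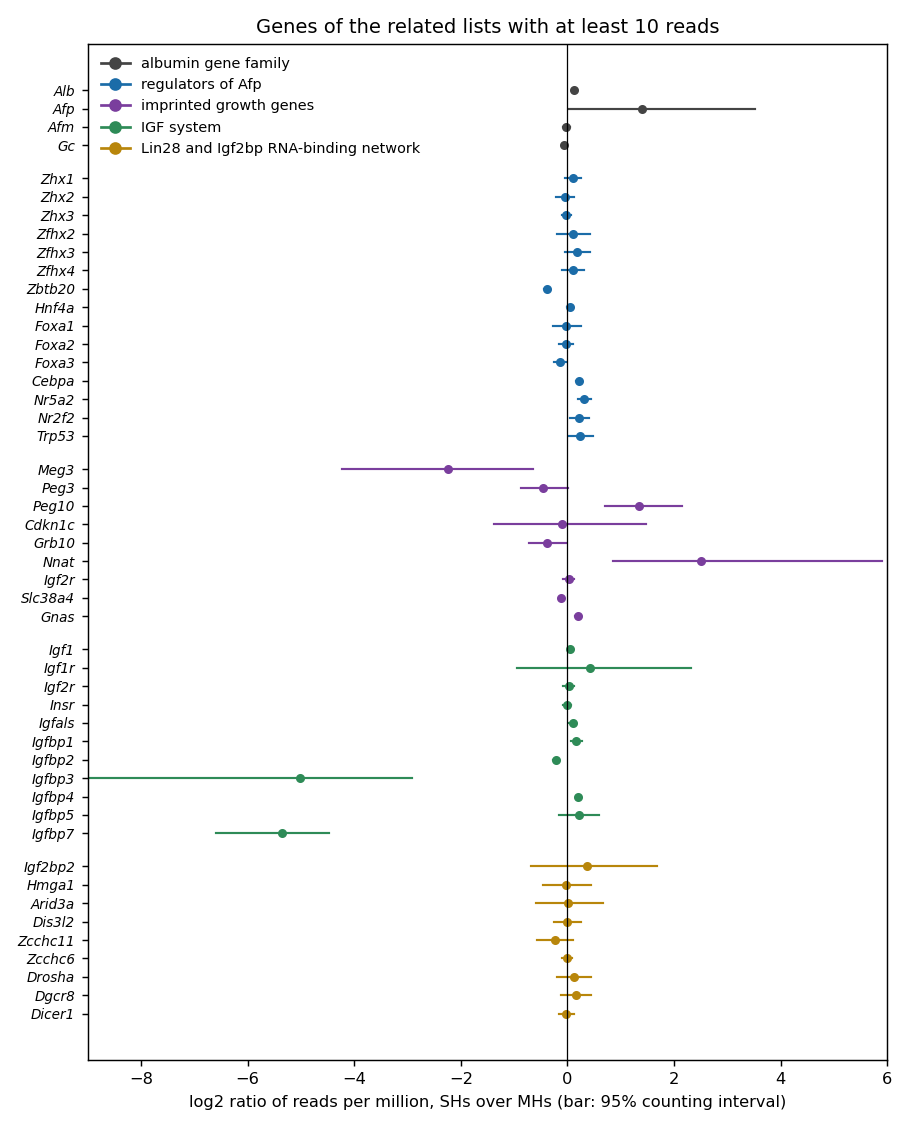
Log2 ratio of RPM in SHs over MHs, with exact 95% counting intervals as bars, for listed genes with at least 10 reads. The lists are the albumin family, the imprinted growth genes, the IGF system and the Lin28 and Igf2bp network. Also shown are the regulators of Afp, listed with the relatives of Zhx2 and Zfhx3. Most of the genes plotted lie close to 0. Afp (1.39), Peg10 (1.35) and Nnat (2.51) stand to the right with wide bars. Igfbp7 (-5.36) and Igfbp3 (-5.02) stand far to the left, and the bar of Igfbp3 is cut off at the edge.

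The let-7 microRNAs are shown because their maturation is what Lin28b blocks, together with the microRNAs that lie within H19 (miR-675) and Igf2 (miR-483). Capitals mark the seed, bases 2 to 8, in the mature sequences of RefSeq, each given with 1 of its places in GRCm38.p6.
mmu-let-7a-5p, minus strand, chr13:48538239-48538260: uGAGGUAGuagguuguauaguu
mmu-let-7b-5p, plus strand, chr15:85707325-85707346: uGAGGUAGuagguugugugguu
mmu-let-7f-5p, minus strand, chr13:48537889-48537910: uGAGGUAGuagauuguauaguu
mmu-let-7g-5p, plus strand, chr9:106178846-106178867: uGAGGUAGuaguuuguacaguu
mmu-miR-675-5p, minus strand, chr7:142577112-142577133: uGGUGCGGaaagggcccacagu
mmu-miR-483-3p, minus strand, chr7:142654932-142654952: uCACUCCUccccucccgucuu
The 4 let-7 sequences share the seed GAGGUAG, which 11 of 1679 mature names carry, whereas the seeds of miR-675-5p and miR-483-3p each occur in 1. Reads on a microRNA gene in poly(A) RNA come from longer transcripts across it and do not measure the mature microRNA. Mir675 and Mir483 had 0 reads in both libraries, beside the 1 read of H19 and the 2 reads of Igf2 in SHs. The 9 let-7 genes in the files, chosen after their values were seen, had 146 reads in MHs and 323 in SHs, or 8.60 RPM (7.26 to 10.1) and 7.63 RPM (6.82 to 8.50). The interval of their log2 ratio of -0.18, from -0.46 to 0.12, included 0. Mirlet7g had the most reads, 55 in MHs and 154 in SHs, and Mirlet7d had 0 in both.

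Relatives of Lin28b and Igf2bp3 also had few reads. Lin28a had 1 read in MHs and 2 in SHs, Igf2bp1 2 and 0, and Hmga2, a let-7 target of fetal cells, 0 and 3. Igf2bp2 was the family member with the most reads, 9 in MHs and 30 in SHs. Its log2 ratio was 0.36, with an interval from -0.69 to 1.68. Enzymes of the pathway were expressed. Zcchc6, which adds uridines to let-7 precursors, had 69.6 RPM in MHs and 69.1 in SHs, Dicer1, which cuts the precursors, 34.6 and 34.0, and Dis3l2, which degrades uridylated precursors, 10.2 in each. All 9 genes of this list of 14 with at least 10 reads had intervals that included 0, and their median was 0.00. Among all genes with at least 10 reads, only 16.8% had an interval above 0 and 15.5% below 0.

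Of the other glypicans, Gpc4 and Gpc1 had many reads. Gpc4 had 37.1 RPM in MHs and 33.1 in SHs, for a log2 ratio of -0.17 (-0.30 to -0.03), and Gpc1 11.5 and 13.6, for a log2 ratio of 0.25 (0.01 to 0.49). Gpc2, Gpc5 and Gpc6 had 2 or fewer reads in each library, so 4 of the 6 glypicans were at 3 or fewer reads in both. The same held for 40.7% of protein-coding symbols.

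Of 20 other genes of the hepatoblast, 7 had 3 or fewer reads in each library, as did 40.7% of protein-coding symbols. Another 11 of the 20 had at least 10. Of these 11, 8 had a log2 ratio below 0, with 5 intervals below 0 and 2 above 0, and the median was -0.06. At least 2-fold lower in SHs were 3 genes and at least 2-fold higher 0. Over all genes with at least 10 reads, 16.8% had an interval above 0 and 15.5% below 0. The shares at least 2-fold apart were 2.00% higher and 4.46% lower. The genes with an interval below 0 were Tbx3 and, named after their values were seen, Mycn with a log2 ratio of -3.10 (-5.28 to -1.58), Pkm with -1.79 (-2.86 to -0.78), Onecut2 with -0.41 (-0.55 to -0.27) and Onecut1 with -0.19 (-0.36 to -0.01). The reads of MHs and SHs were 15 and 4 on Mycn and 21 and 15 on Pkm. The unsorted MHs held more reads of other cell types, as given above, and the part of those cells in these values was not tested. Prox1 and Hhex, transcription factors of the early liver bud that stay on in hepatocytes, had log2 ratios of -0.06 (-0.16 to 0.04) and -0.01 (-0.15 to 0.13). Aldoa, an aldolase that prevails in the fetal liver, had 49.4 RPM in MHs and 62.3 in SHs, for a log2 ratio of 0.33 (0.22 to 0.45). Tbx3, a factor of hepatoblast growth that is also a pericentral gene in the adult liver, had 248 reads in MHs and 169 in SHs, or 14.6 and 3.99 RPM, for a log2 ratio of -1.87 (-2.16 to -1.58). Sox9, chosen after its values were seen, had 92 and 325 reads, for a log2 ratio of 0.50 (0.16 to 0.85), and is also among the 7 cholangiocyte markers. Of these markers 3 had at least 10 reads, with 2 intervals above 0 and 1 below 0. Beside Sox9 they were Tstd1 with a log2 ratio of 0.59 (0.25 to 0.95) and Spp1 with -0.33 (-0.63 to -0.02). The summed RPM over the 7 was 19.1 in MHs and 21.9 in SHs. The defining duct keratins Krt19 and Krt7 had 1 read each in both libraries. Epcam had 6 and 1, and its protein is one that SHs were sorted to lack.

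Both libraries held the defining genes of hepatocytes at high levels. All 15 adult hepatocyte genes had at least 3324 reads in MHs and 8977 in SHs, with a summed RPM of 35491 and 36308 and a median log2 ratio of 0.06. Cps1, of the urea cycle, had 6182 RPM in MHs and 6270 in SHs, Apoa1, of high-density lipoprotein, 5497 and 4803, and Ttr, which carries thyroxine, 4922 and 4749. Cyp2e1, a pericentral cytochrome, was the 1 gene of this list that differed by 2-fold, with a log2 ratio of -1.89 (-1.91 to -1.87). Of the 11 erythroid genes in the files, named because the fetal liver makes blood, the embryonic globins Hbb-y, Hbb-bh1 and Hba-x had 0 reads in both libraries, and the adult globin Hba-a1 had 0 and 9. Alas2, the erythroid heme enzyme, had 118 and 137 RPM, and Klf1 30 and 91 reads, for a log2 ratio of 0.27 (-0.33 to 0.93).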

How the data were processed

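Poly(A) RNA of 1 sample of MHs and 1 sample of SHs was measured. The authors deposited whole read counts per gene symbol, with no scaling. Their methods give trimming, mapping to mm10 in CLC Genomics Workbench and RPKM values, but the program and annotation behind the whole counts are not given in the sources used here, so reads of overlapping or near-identical genes are uncertain. From the counts, RPM, log2 ratios with 0.5 reads added and exact 95% intervals (Clopper-Pearson for ratios, Poisson for levels) were computed with scipy 1.17.1, pandas 2.3.3 and numpy 2.4.6 (Python 3.11.15) and tested on simulated data. RPKM used the union of GENCODE M21 exons, in which 39379 of 43280 symbols were found once. The counted totals were 16979136 and 42356444. Genes with 3 or fewer reads in both libraries got no fold, and lists used genes with at least 10 reads. Named genes were the members, the 3 genes with the most reads of each list, and list genes with at least 50 reads that differed by 2-fold. This rule was not applied to the lists of cell type markers. Other named genes were chosen after their values were seen. The members and lists were chosen with earlier results of these data known. Of the listed genes, 2 are not reported here. Alternatives were TMM scaling (edgeR 4.0.16, R 4.3.3), DESeq2 1.42.0 size factors, 3 other totals, 2 reads added, other read minimums and other folds. Backgrounds restricted to the read range of a member, and Afp scaled by Alb, were chosen after seeing the data. With 1 library per condition, no count model was fitted and no p-value was computed.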

Additional observations from a re-analysis of the deposited data

How the results depend on the processing

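Of the members, 2 had an interval above 0 and 1 was at least 2-fold higher. These counts were 1 and 0 when the libraries were scaled by the reads of the adult hepatocyte list, where the interval of Afp ran from 0.00 to 3.48, and also 1 and 0 with a minimum of 100 reads, which removes Afp. At 4-fold the number higher was 0. No member had an interval below 0 or was at least 2-fold lower under any setting that was run. TMM, DESeq2's size factors and scaling by the totals without Alb or without the 10 genes with the most reads kept both counts at their value. The scalings shifted all genes by between -0.033 and 0.032 on the log2 scale, and the log2 ratio of Alb lay between 0.09 and 0.16, of Zhx2 between -0.08 and -0.02 and of Zfhx3 between 0.15 and 0.22. Afp lay between 1.36 and 1.43, at 1.27 per Alb read, chosen after the data were seen, and at 1.05 with 2 reads added. The median of the members lay between 0.12 and 0.23. With the longest transcript in place of all exons, Afp had 0.114 RPKM in MHs and 0.332 in SHs. Counts of 3 or fewer reads allow no ratio, and the library of MHs, the shallower, limits them most. No paired analysis was possible because MHs and SHs had 1 library each.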
